A study of Homo sapiens with 8 samples.

Results

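FGFR1, FGFR2, FGFR3 and FGFR4, the growth factor FGF2 and the secreted carrier FGFBP1 are followed here through RNA sequencing of LK2, a human cell line from lung squamous cell carcinoma. They were taken by symbol from the gene count table, 6 genes of 26760, and 5 of the 6 were among the 12303 genes with enough counts to be tested. The 8 libraries formed 4 groups of 2. Constitutive DNp63 cells carried pLEX_306-DNp63 (replicate 1) or pLEX_307-DNp63 (replicate 2), GFP cells carried pLEX_306-GFP or pLEX_307-GFP, and the induced and uninduced cells carried pLIX_403-DNp63 and were kept for 6 days with doxycycline at 2 µg/ml or without the drug. DNp63 is the N-terminally truncated form of p63, a transcription factor of the p53 family.

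All groups share the LK2 background. The spread within the DNp63 and GFP groups is between libraries with different vector numbers. No library of cells without the DNp63 vector was given doxycycline among those analysed here, so an effect of the drug itself and one of DNp63 cannot be told apart in the induced group. Whether a pair of libraries in a group came from separate cultures is not stated in the labels, so p-values measure the spread between these libraries, which may be technical.

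Fibroblast growth factors (FGFs) are secreted proteins that bind tyrosine kinase receptors together with heparan sulfate, a sugar chain of the cell surface and matrix, and the receptors pass the signal on through RAS and the ERK kinases. FGF2 is stored bound to heparan sulfate outside cells, and FGFBP1 binds it and releases it from that store. FGFR1 to FGFR4 differ in the ligands they bind, and FGFR1 is amplified or highly expressed in a share of lung squamous tumours. p63 marks the basal layer of stratified epithelia and squamous tumours.

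Library totals ran from 2758158 to 10372248 counts. TP63, the overexpressed gene, was at 1850.1 and 3816 CPM (counts relative to the scaled library size) in constitutive DNp63 cells, against 0.739 and 1.91 CPM in GFP cells, and at 412 and 422 CPM in induced cells, against 12.7 and 14.8 CPM in uninduced cells. TP63 counts include any vector reads that match the gene. The 5 general epithelial markers (EPCAM, CDH1, KRT8, KRT18, KRT19) summed to at least 3286 CPM in every library. Summed squamous markers, 9 genes that include TP63 itself, ranged from 3443 to 5047 CPM in constitutive DNp63 cells, against 70.3 to 85.0 CPM in GFP cells, and from 567 to 569 CPM in induced cells, against 59.2 to 60.6 CPM in uninduced cells. KRT14, a keratin of basal cells, was at 0 in all 8 libraries, so LK2 lacked this marker with and without DNp63. The other 8 squamous markers were all called higher under constitutive DNp63, where 4.17% of all tested genes were. After induction 4 of them were called higher, where 0.236% of all tested genes were. TP63, the overexpressed gene, is among those called in both comparisons, so its calls were set by the design. KRT5, another of these markers, was at 398 and 18.8 CPM in constitutive DNp63 cells, against 0.369 and 0.635 CPM in GFP cells. In induced cells KRT5 was at 0.494 and 0.393 CPM. Summed fibroblast markers were at most 30.8 CPM, immune markers at most 3.71 CPM and endothelial markers at most 2.33 CPM, with COL3A1, DCN, CD3E, PECAM1 and CDH5 at 0 in every library.

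FGFBP1 fell with DNp63, and none of the other 4 tested genes was called in the main edgeR fit. Averaged over the constitutive and inducible systems, 1 of the 5 tested genes was called lower and 0 higher by edgeR's quasi-likelihood test at a Benjamini-Hochberg adjusted p below 0.05, where 5.67% of all tested genes were called, 2.41% lower and 3.26% higher. Under constitutive DNp63 alone the count was again 1 lower and 0 higher, with 8.16% of all tested genes called, 3.99% lower and 4.17% higher. In that comparison 3 of the 5 members had an unadjusted p below 0.05. Counts at an unadjusted p have no share of all tested genes beside them here, so they are no result about the members. DESeq2 and limma-voom each called 2 members there, FGFBP1 and FGFR1, among 1221 and 849 genes called in all. Under induced DNp63 none of the 5 was called. There 0.284% of all tested genes were called and 0.0488% called lower, and 1 of the 5 members (FGF2) had an unadjusted p below 0.05. DESeq2 called 110 genes there and limma-voom 26, with no member among them.

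**Figure D1:**
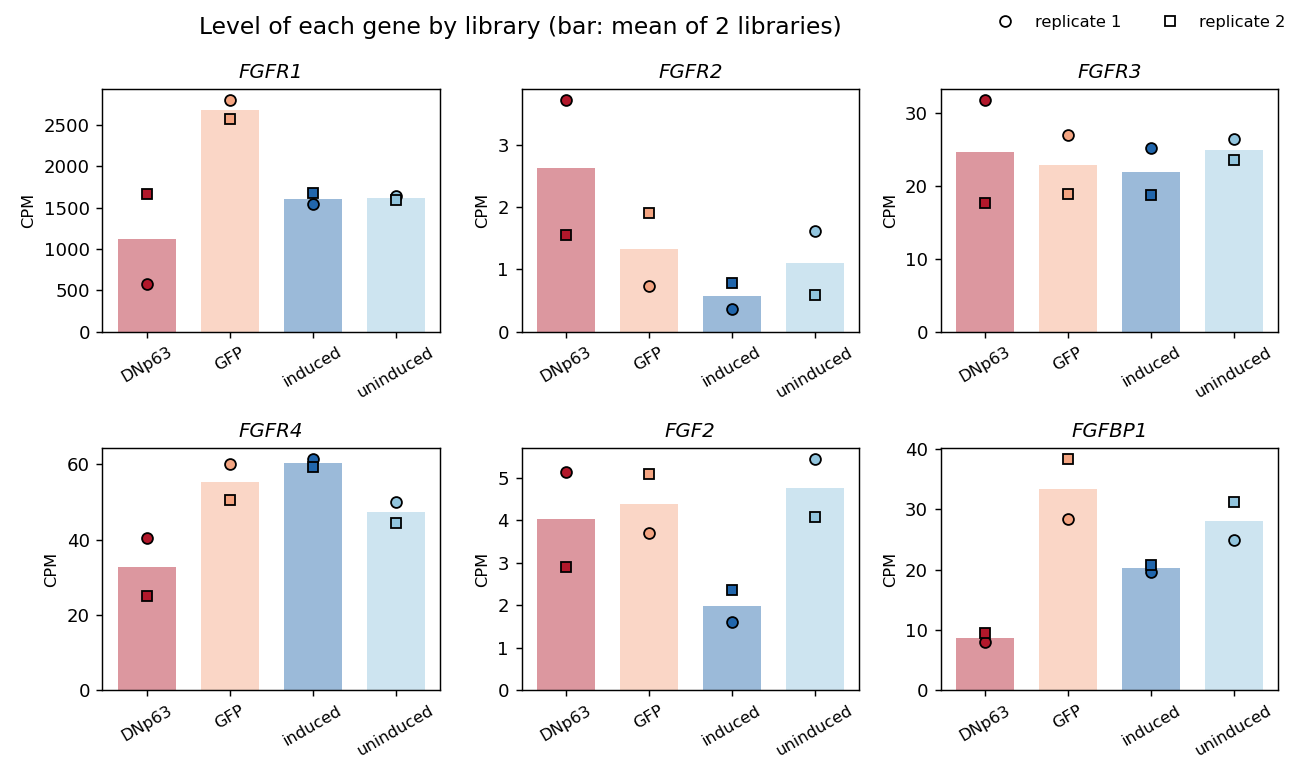
CPM of the 6 genes in each of the 8 libraries, on linear axes from 0, with constitutive DNp63 left of GFP and induced left of uninduced; circles are replicate 1, squares replicate 2 and bars the means of 2 libraries. FGFBP1 libraries with DNp63 lie below their controls in both systems, FGFR1 separates only the constitutive groups and has DNp63 libraries at 579 and 1664 CPM, and FGFR3 libraries overlap in both systems.

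FGFBP1, the carrier that frees FGF2 from heparan sulfate, was the member that responded. Its level was 8.0 and 9.50 CPM in constitutive DNp63 cells, against 28.5 and 38.3 CPM in GFP cells. It was 19.6 and 20.9 CPM in induced cells, against 25.0 and 31.3 CPM in uninduced cells. Both DNp63 groups lay below their own controls with no overlap, the constitutive group by far the most. Such a gap is common with 2 libraries a group, since 44.4% of all tested genes did not overlap between constitutive DNp63 and GFP cells, 22% being lower, and 46.9% between induced and uninduced cells, 24% being lower.

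The fitted FGFBP1 level was 3.81-fold lower in constitutive DNp63 than in GFP cells, or −1.93 ± 0.28 as a log2 fold change (SE with 2 libraries in each group; 95% limits −2.54 to −1.32; edgeR adjusted p = 0.00218). The log2 ratio within the same vector backbone was −1.78 between the pLEX_306 libraries and −1.97 between the pLEX_307 libraries, so the fall was seen with both. In the inducible system the log2 fold change was −0.48 ± 0.25 (95% limits −1.04 to 0.07; edgeR adjusted p = 0.922), which did not pass. The average of both systems was −1.21 ± 0.19 (edgeR adjusted p = 0.00394), a 2.31-fold lower level. FGFBP1 was called in each of 9 fits of the constitutive comparison. In 8 fits that each left out 1 library its log2 fold change ran from −2.12 to −1.70.

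The difference between systems in FGFBP1 did not pass the test. Induced minus constitutive, it was 1.45 ± 0.37 on the log2 scale (95% limits 0.62 to 2.27; edgeR adjusted p = 0.145), in a comparison where 0.545% of all tested genes were called, 0.293% with a positive sign, and none of the 5 members was. Of these 3 (FGFR1, FGFR4 and FGFBP1) had an unadjusted p below 0.05. DESeq2 and limma-voom called 0 of the members, with 265 and 45 genes called in all. TP63 in induced cells was 417 ± 6.89 CPM (SD, n = 2), against 2833 ± 1389.9 CPM in constitutive DNp63 cells. Summed squamous markers were also lower in induced than in constitutive DNp63 cells, but that sum includes TP63 itself. SOX2, a transcription factor of squamous tumours named in the title of the series, fell as well (constitutive edgeR adjusted p = 0.00125), to 68.3 and 96.4 CPM in constitutive DNp63 cells, against 278 and 517 CPM in GFP cells. The part of any of these in the level of FGFBP1 was not tested. In bulk RNA, fewer cells that express a gene and less RNA per cell cannot be told apart.

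The promoter of FGFBP1 is shown because FGFBP1 is the member that fell when a transcription factor of the p53 family was supplied, and 1 of the 2 RefSeq windows of FGFR4 is shown for its different base composition, in a gene that was not called. Both are RefSeq windows (GRCh38.p14) from 250 bases before to 50 after the start site, 5′ to 3′, and capitals mark matches to the motifs searched. The FGFBP1 window lies at chr4:15938691-15938990 on the minus strand and that of FGFR4 at chr5:177086665-177086964 on the plus strand.
FGFBP1: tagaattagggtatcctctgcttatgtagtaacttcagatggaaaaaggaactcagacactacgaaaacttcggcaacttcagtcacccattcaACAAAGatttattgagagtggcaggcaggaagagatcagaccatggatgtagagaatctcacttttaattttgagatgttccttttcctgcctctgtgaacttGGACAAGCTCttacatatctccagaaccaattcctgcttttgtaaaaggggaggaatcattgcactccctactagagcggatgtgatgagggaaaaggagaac
FGFR4: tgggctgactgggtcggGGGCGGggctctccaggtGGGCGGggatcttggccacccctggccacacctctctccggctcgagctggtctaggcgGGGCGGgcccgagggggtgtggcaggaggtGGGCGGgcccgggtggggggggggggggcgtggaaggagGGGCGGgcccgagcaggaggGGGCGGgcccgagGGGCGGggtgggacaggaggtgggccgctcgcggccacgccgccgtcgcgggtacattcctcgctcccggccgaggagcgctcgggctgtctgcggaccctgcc
The motifs, searched on both strands, were the AP-1 site TGANTCA, the SP1 site GGGCGG, the TATA box TATAAA, the SOX site ACAANG and, by its name, the half-site of the p53 family. The FGFBP1 window held 1 p53-family half-site, whose first base lies 53 bases before the start (position −53), and 1 SOX match at position −156. The half-site was found in 6.63% of 35116 RefSeq promoter windows and the SOX match in 35.5%. FGFBP1 had no AP-1 match, found in 7.71% of windows, no SP1 match, found in 45%, and no TATA match, found in 11.5%. The FGFR4 window shown held 7 SP1 matches and none of the other motifs, with a GC content of 78.7%, against 42% for FGFBP1. The other FGFR4 window, at chr5:177089300-177089599, had a GC content of 57.3%, no SP1 match and 1 SOX match at position −46. These matches describe letters and say nothing of binding.

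FGF2 was scarce in LK2 and its constitutive groups overlapped. It was at 5.14 and 2.91 CPM in constitutive DNp63 cells, against 3.69 and 5.08 CPM in GFP cells. In induced cells it was at 1.61 and 2.36 CPM, against 5.43 and 4.08 CPM in uninduced cells, where the groups did not overlap. The counts were small, 13 and 12 in induced cells against 27 and 42 in uninduced cells, and the ratio of their sums relative to library totals was 0.417 (95% exact limits 0.253 to 0.668, counting error only). The log2 fold change of −1.26 ± 0.50 (SE; 95% limits −2.37 to −0.16) did not pass across all genes (edgeR adjusted p = 0.68). Under constitutive DNp63 it was −0.18 ± 0.51 (95% limits −1.30 to 0.95; edgeR adjusted p = 0.882), and the difference between systems was −1.09 ± 0.72 (edgeR adjusted p = 0.597).

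FGF2 shares 637 bases, 9.40% of its exons in GENCODE v29, with NUDT6 on the opposite strand. NUDT6 had 12 and 24 counts in constitutive DNp63 libraries, 5 and 12 in GFP libraries, 61 and 20 in induced libraries and 24 and 45 in uninduced libraries. The libraries were directional, but whether the counting used strand is unknown here, so reads from the shared stretch cannot be assigned with certainty.

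FGFR1 was by far the most abundant of the receptors, and its level separated the DNp63 libraries from each other as well as from GFP. It was at 579 and 1664 CPM in constitutive DNp63 cells, against 2794 and 2574 CPM in GFP cells. In induced cells it was at 1540.05 and 1675 CPM, against 1642 and 1585 CPM in uninduced cells. The constitutive groups did not overlap, the inducible groups did, and the lower of the DNp63 libraries was replicate 1, which had less TP63 (1850.1 CPM) than replicate 2 (3816 CPM). The mean was 1121 ± 767 CPM in constitutive DNp63 cells and 2684 ± 156 CPM in GFP cells (SD, n = 2 each).

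The constitutive log2 fold change of FGFR1 was −1.26 ± 0.36 (SE; 95% limits −2.06 to −0.45) and missed the threshold (edgeR adjusted p = 0.0608). Its size rested on which DNp63 library was kept. Without DNp63 replicate 1 the change was −0.70 (edgeR adjusted p = 0.024), and without DNp63 replicate 2 it was −2.21 (edgeR adjusted p = 3.01e-05), both past the threshold. Each of these fits leaves 1 DNp63 library, which is assumed to vary like the other groups, and drops the disagreement between the DNp63 libraries from the spread, so their p-values are no measure of stability. Between the pLEX_306 libraries the log2 ratio was −2.27 and between the pLEX_307 libraries −0.63. A fit with the replicate number as a block gave −1.45 (edgeR adjusted p = 0.00845), DESeq2 gave −1.26 (adjusted p = 0.00404) and limma-voom gave −1.44 (adjusted p = 0.034). Of 9 fits of the constitutive comparison, 4 called FGFR1, and the highest adjusted p was 0.0783. The 4 constitutive libraries alone gave −1.25 (edgeR adjusted p = 0.237), not called. In all of these fits FGFR1 was lower with DNp63.

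The DNp63 replicates differed 2.87-fold in FGFR1, and only 3.23% of 10099 well-counted genes differed as much between these libraries, for which the median gene differed 1.30-fold. The FGFBP1 difference between the same libraries was 1.19-fold, which 65.2% of those genes reached or passed. Induction left FGFR1 with a log2 fold change of −0.01 ± 0.36 (95% limits −0.80 to 0.79; edgeR adjusted p = 0.999), limits that leave room for a change in either direction. That spread is shared with the constitutive libraries. In the 4 inducible libraries alone the change was −0.0019 with an SE of 0.087 (edgeR adjusted p = 0.994). The difference between systems was 1.25 ± 0.51 (95% limits 0.13 to 2.38; edgeR adjusted p = 0.357). The uninduced control was at 1614 ± 39.7 CPM and the GFP control at 2684 ± 156 CPM, a log2 difference of −0.73 ± 0.36 that did not pass (edgeR adjusted p = 0.591). In that comparison of controls edgeR called 0.00813% of all tested genes and none of the 5 members, of which 0 had an unadjusted p below 0.05 and DESeq2 and limma-voom called 0.

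**Figure D2:**
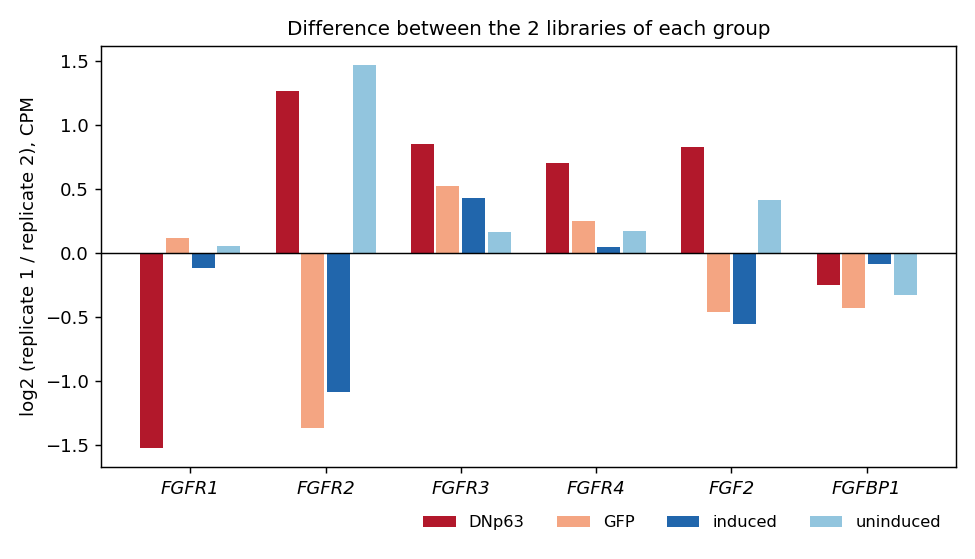
Log2 ratio of the CPM of replicate 1 to that of replicate 2 in each group, for the 6 genes; bars run from the zero line of equal levels and colours mark the groups. FGFR1 differs 2.87-fold between the DNp63 replicates, with replicate 1 lower, and FGFBP1 1.19-fold, while the long bars of FGFR2 come from libraries with 2 to 13 counts.

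FGFR4, the receptor best known for binding FGF19, had estimates of opposite sign in the constitutive and inducible systems, none past the test. Its level was 40.6 and 25.0 CPM in constitutive DNp63 cells, against 60.2 and 50.6 CPM in GFP cells. It was 61.4 and 59.4 CPM in induced cells, against 50.1 and 44.5 CPM in uninduced cells. Constitutive DNp63 libraries lay below GFP and induced libraries above uninduced, without overlap, as 22% of all tested genes were lower in the first and 22.9% higher in the second. The log2 fold change was −0.76 ± 0.25 (95% limits −1.32 to −0.21; edgeR adjusted p = 0.0923) under constitutive DNp63. It was 0.35 ± 0.24 (95% limits −0.18 to 0.89; edgeR adjusted p = 0.958) after induction. The difference between systems was 1.12 ± 0.35 on the log2 scale (95% limits 0.35 to 1.89) and did not pass (edgeR adjusted p = 0.225). Without DNp63 replicate 1 the constitutive change was −1.15 (edgeR adjusted p = 0.0137) and the difference 1.5 (edgeR adjusted p = 0.0347), with the lone DNp63 library again assumed to vary like the other groups. With the replicate number as a block the constitutive change was −0.79 (edgeR adjusted p = 0.0372). Of 9 fits of the constitutive comparison, 2 called FGFR4. The 4 constitutive libraries alone gave −0.76 (edgeR adjusted p = 0.333), not called.

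FGFR3, a receptor that is often mutated in bladder tumours, showed no change that the test could see. It was at 31.7 and 17.7 CPM in constitutive DNp63 cells, against 27.0 and 18.8 CPM in GFP cells. In induced cells it was at 25.2 and 18.7 CPM, against 26.4 and 23.5 CPM in uninduced cells. The libraries overlapped in both systems. The log2 fold change was 0.11 ± 0.33 (95% limits −0.62 to 0.84; edgeR adjusted p = 0.887) under constitutive DNp63 and −0.17 ± 0.31 (95% limits −0.87 to 0.52; edgeR adjusted p = 0.995) after induction.

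FGFR2, which in epithelia is mainly made as the splice form that binds FGF7 and FGF10, was at the edge of detection. Its counts were 13 and 8 in constitutive DNp63 libraries, against 2 and 9 in GFP libraries, and 3 and 4 in induced libraries, against 8 and 6 in uninduced libraries. These overlapped in the constitutive system, and in CPM they overlapped in both. FGFR2 failed the filter on low counts and was not tested. The ratio of summed counts relative to library totals was 1.75 for constitutive DNp63 over GFP (95% exact limits 0.806 to 4.02) and 0.576 for induced over uninduced (0.197 to 1.53), counting error only. A difference was not detectable at this depth.

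**Figure D3:**
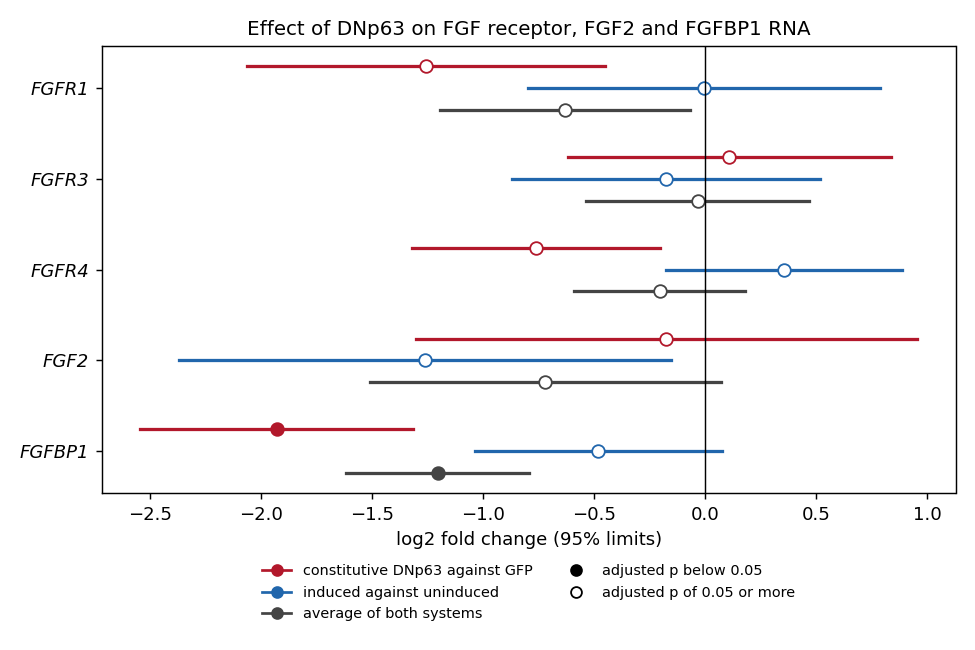
Log2 fold changes with 95% limits for the 5 tested genes, for constitutive DNp63 against GFP, induced against uninduced and the average of both; filled points have an adjusted p below 0.05. The filled points belong to FGFBP1, at −1.93 and −1.21, while the limits of FGFR1 (constitutive and average), FGFR4 (constitutive) and FGF2 (induced) exclude 0 although none of these passed across all genes.

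Per kb of exon FGFR1 was the highest of the 6 genes in every group. It was at 172 ± 118 CPM per kb in constitutive DNp63 cells, 412 ± 23.9 in GFP cells, 247 ± 14.6 in induced cells and 248 ± 6.09 in uninduced cells (SD, n = 2 each). FGFR3, FGF2 and FGFR2 followed in that order behind FGFBP1 and FGFR4 in every group, FGFR2 with a mean of at most 0.393 CPM per kb, although FGF2 and FGFR2 libraries overlapped in constitutive DNp63 cells. The order of FGFBP1 and FGFR4 differed between groups. FGFBP1 was at 6.44 ± 0.782 CPM per kb in constitutive DNp63 cells, below FGFR4 at 10.3 ± 3.44, and its libraries there overlapped those of FGFR3. In GFP cells FGFBP1 was at 24.6 ± 5.14 CPM per kb, above FGFR4 at 17.3 ± 2.13. In induced cells FGFBP1 was at 14.9 ± 0.631 CPM per kb and FGFR4 at 18.9 ± 0.438, an order that turned round per coding length, and in uninduced cells FGFBP1 was at 20.7 ± 3.30 and FGFR4 at 14.8 ± 1.24.

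Of the counts that fell on the receptors, FGFR1 held most in every library. Its share was 88.4% (95% exact limits 87.0% to 89.7%) and 97.4% in constitutive DNp63 replicates 1 and 2, against 96.9% and 97.3% in the GFP libraries. It was 94.7% and 95.5% in the induced libraries, against 95.5% and 95.9% in the uninduced libraries. DNp63 replicate 1 stood apart from the other 7 libraries, with FGFR4 at 6.20% and FGFR3 at 4.84% of receptor counts, against 1.47% and 1.03% in DNp63 replicate 2. The FGFR1 and FGFR4 shares of the constitutive groups overlapped. The FGFR3 share did not, at 4.84% and 1.03% in DNp63 libraries against 0.936% and 0.713% in GFP libraries. Nor did the FGFR2 share, at 0.567% and 0.0909% against 0.0256% and 0.0721%, from 2 to 13 counts a library. Such gaps are common, since 44.4% of all tested genes did not overlap by CPM between these groups. The FGFR3 gap was narrow, with exact limits of 0.833% to 1.27% in DNp63 replicate 2 and 0.734% to 1.18% in GFP replicate 1. These shares were not tested. They depend on gene length. By group mean CPM per kb of exon, FGFR4 held 5.45% in constitutive DNp63 cells, 3.99% in GFP cells, 6.99% in induced cells and 5.52% in uninduced cells. Of summed raw counts it held 2.44% in constitutive DNp63 cells, 1.98% in GFP cells, 3.62% in induced cells and 2.77% in uninduced cells. Intervals here cover counting error only.

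**Figure D4:**
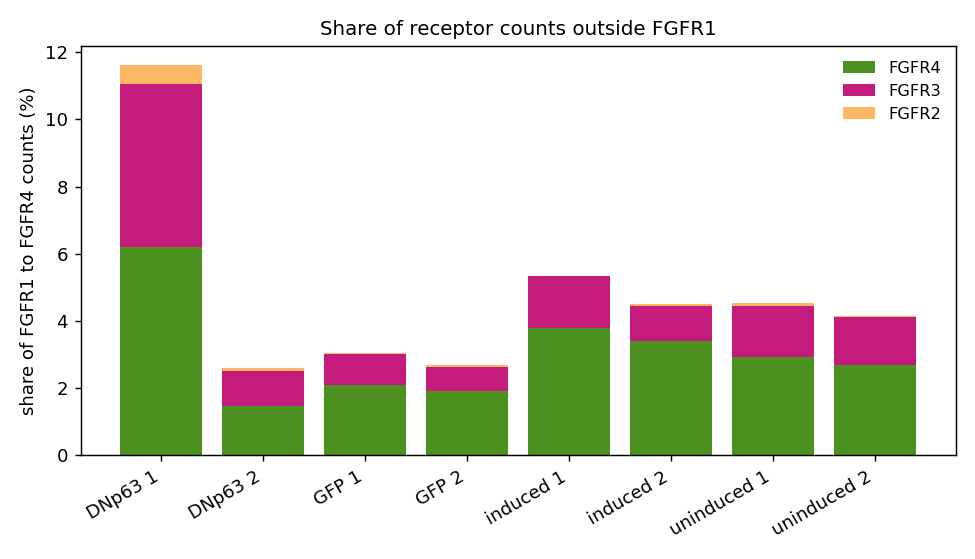
Share of all FGFR1 to FGFR4 counts, in percent, held by FGFR4, FGFR3 and FGFR2 in each library, as stacked bars from 0; the remainder, not drawn, is FGFR1. DNp63 replicate 1 has the tallest bar, with FGFR4 at 6.20% and FGFR3 at 4.84%, and DNp63 replicate 2 has FGFR4 at 1.47% and FGFR3 at 1.03%.

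The rest of the pathway was examined by lists of its parts. Beside these lists, 3.26% of all tested genes were called higher and 2.41% lower in the average. Under constitutive DNp63 the shares were 4.17% and 3.99%, and after induction 0.284% were called either way. DESeq2 called 885 and limma-voom 708 genes in the average, and 110 and 26 after induction. List counts at an unadjusted p below 0.05 have no such share beside them and only describe the lists. Among 17 secreted ligands other than FGF2, 6 were tested, and 1 rose and 0 fell in the average of both systems. The median log2 fold change of the 6 was 0.37, against −0.01 over all tested genes. The one was FGF9, a ligand that binds FGFR3 and other receptors, at 102 and 96.2 CPM in constitutive DNp63 cells, against 18.8 and 14.4 CPM in GFP cells. It was at 30.9 and 23.2 CPM in induced cells, against 11.7 and 16.6 CPM in uninduced cells. All DNp63 libraries exceeded their controls, and the averaged log2 fold change was 1.76 ± 0.19 (SE; edgeR adjusted p = 0.000384). In 8 fits without 1 library the averaged change of FGF9 ran from 1.64 to 1.90. Its change was 2.59 ± 0.27 under constitutive DNp63 (edgeR adjusted p = 0.000354) and 0.92 ± 0.26 after induction (edgeR adjusted p = 0.309).

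FGF19, the ligand of FGFR4, and FGF3 were the ligands with the most counts. FGF19 averaged 1053 ± 364 CPM in constitutive DNp63 cells, 1058 ± 65.9 CPM in GFP cells, 1203 ± 127 CPM in induced cells and 1040.3 ± 66.6 CPM in uninduced cells (SD, n = 2 each). Neither was called. FGF3 averaged 343 ± 3.97 CPM in constitutive DNp63 cells, 365 ± 82.5 CPM in GFP cells, 529 ± 15.6 CPM in induced cells and 365 ± 36.5 CPM in uninduced cells, with an averaged log2 fold change of 0.22 (edgeR adjusted p = 0.435). KLB, the co-receptor that FGF19 uses with FGFR4, had between 1 and 10 counts a library. FGF21 had 65 counts in constitutive DNp63 libraries and 6 in GFP libraries, a ratio of 9.92 (95% exact limits 4.32 to 28.0, counting error only), against 6 in induced and 6 in uninduced libraries. DNp63 replicate 1 held 49 of the 65 counts and replicate 2 held 16. The constitutive log2 fold change of FGF21 was 3.23 (edgeR adjusted p = 0.0665) and the average 1.73 (edgeR adjusted p = 0.283), neither called. The constitutive change was called by DESeq2 (adjusted p = 0.0266), with the replicate number as a block (adjusted p = 0.0174), with no filter (adjusted p = 0.00164) and without legacy estimates (adjusted p = 0.049), and it was 1.79 without DNp63 replicate 1. FGF18, at 0.52 (edgeR adjusted p = 0.356), was not called either. Of the 3 tested intracellular FGFs, FGF11, FGF12 and FGF13, none was called by edgeR, DESeq2 or limma-voom, and FGF13, the 1 with an unadjusted p below 0.05, had an averaged log2 fold change of −0.82 (edgeR adjusted p = 0.0725). With the replicate number as a block edgeR called FGF13 in the average (adjusted p = 0.0434) and under constitutive DNp63 (adjusted p = 0.0351), and with no filter in both (adjusted p = 0.0234 and 0.0147).

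After induction edgeR called no gene of the 8 pathway lists, among them 0 of the 6 ligands (2 with an unadjusted p below 0.05) and 0 of the 15 co-receptors and partners (3 with one). DESeq2 called 1 feedback inhibitor there, SHISA2, and limma-voom none. Those 0 calls depend on the fit. In the 4 inducible libraries alone, edgeR called FGF9 (0.92; adjusted p = 0.00768), FGF3 (0.54; adjusted p = 0.000283), GPC1 (1.18; adjusted p = 0.000124) and SHISA2 (−1.56; adjusted p = 2.11e-07). That fit called 771 genes in all, against 35 in the main fit, so more calls came with it throughout. With no filter on low counts edgeR called GPC1 (adjusted p = 0.00324) and SHISA2 (adjusted p = 8.65e-06), among 242 genes in all.

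Among co-receptors and extracellular partners 15 of 20 in the table were tested, and 3 rose and 0 fell in the average, with a median of 0.12. GPC1, a cell-surface heparan sulfate proteoglycan, was at 147 and 78.8 CPM in constitutive DNp63 cells, against 15.5 and 22.7 CPM in GFP cells, and at 42.2 and 33.4 CPM in induced cells, against 19.5 and 14.9 CPM in uninduced cells. No DNp63 library overlapped its controls, and GPC1 rose by 1.85 ± 0.23 on the log2 scale in the average (edgeR adjusted p = 0.0011). SDC2, another proteoglycan of the cell surface, was at 179 and 43.3 CPM in constitutive DNp63 cells, against 15.9 and 10.8 CPM in GFP cells, and at 13.2 and 19.1 CPM in induced cells, against 12.9 and 15.7 CPM in uninduced cells. Its averaged change of 1.61 (edgeR adjusted p = 0.0354) came from the constitutive libraries, where it was 3.07 (edgeR adjusted p = 0.00838, but 0.0949 without GFP replicate 2), and the inducible groups overlapped. FLRT3, a membrane protein that binds FGF receptors, had 25 counts in constitutive DNp63 and 3 in GFP libraries, a ratio of 7.63 (95% exact limits 2.33 to 39.5, counting error only). It had 52 in induced and 20 in uninduced libraries, a ratio of 3.0 (1.76 to 5.30). Induced replicate 1 held 43 of the 52 counts. The induced libraries were at 5.31 and 1.77 CPM, against 1.41 and 1.26 CPM in uninduced cells. Without induced replicate 1 the induced log2 fold change was 0.41. FLRT3 was called in the average (edgeR adjusted p = 0.046). SDC4, at 0.71 (edgeR adjusted p = 0.117), was not called. SDC3, picked after its values were seen, was called under constitutive DNp63 alone, at 1.15 (edgeR adjusted p = 0.0161).

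Among 13 enzymes that build or edit heparan sulfate, all tested, 2 rose and 0 fell in the average, with a median of −0.03. GLCE, the epimerase that converts glucuronic to iduronic acid in the chain, was at 72.3 and 75.3 CPM in constitutive DNp63 cells, against 31.0 and 15.9 CPM in GFP cells, and at 45.2 and 48.2 CPM in induced cells, against 34.2 and 43.8 CPM in uninduced cells. Its averaged log2 fold change was 0.97 (edgeR adjusted p = 0.0193) and came mostly from the constitutive libraries. In 8 fits without 1 library the GLCE change ran from 1.24 to 2.21 under constitutive DNp63 and from 0.09 to 0.45 after induction. The 4 constitutive libraries alone gave 1.68 (edgeR adjusted p = 0.0556), not called. SULF1, a sulfatase that removes sulfate groups outside the cell, had 42 counts in constitutive DNp63 and 3 in GFP libraries, a ratio of 12.8 (95% exact limits 4.10 to 64.7, counting error only). It had 36 in induced and 13 in uninduced libraries, a ratio of 3.19 (1.65 to 6.56). Induced replicate 1 held 30 of the 36 counts. The induced libraries were at 3.71 and 1.18 CPM, against 0.604 and 0.972 CPM in uninduced cells. Without induced replicate 1 the induced log2 fold change was 0.51. SULF1 was called in the average (edgeR adjusted p = 0.032). In 8 fits that each left out 1 library, the averaged change ran from 0.94 to 1.96 for SDC2 and from 1.59 to 2.38 for FLRT3. It ran from 0.74 to 1.23 for GLCE and from 1.96 to 2.96 for SULF1, beside 1.58 to 2.04 for GPC1. The calls of SDC2, FLRT3 and SULF1 were lost in most of these fits and that of GLCE in several. Each fit leaves a group with 1 library, so its p-values are no measure of stability. limma-voom did not call SDC2 (adjusted p = 0.109), FLRT3 (0.0944) or SULF1 (0.054), and DESeq2 did not call FLRT3 (0.0531).

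Downstream of the receptors, 22 of 23 adaptors and signal carriers were tested and none was called in the average by edgeR, DESeq2 or limma-voom, with a median of 0.03 and 2 at an unadjusted p below 0.05. GAB1, a docking protein, came nearest at 1.29 (edgeR adjusted p = 0.0684). Feedback inhibitors, which FGF signalling induces or which restrain its receptors, had 11 of 14 tested, and 1 fell and 0 rose in the average, with a median of −0.30, while DESeq2 called 3 and limma-voom 2. Under constitutive DNp63 alone 3 fell, with a median of −1.06, where 3.99% of all tested genes fell and their median was 0.01. After induction none was called, with a median of 0.05, where only 0.284% of all tested genes were called. SHISA2, known in frogs to hold back FGF and Wnt receptors inside the cell, was at 6.29 and 1.16 CPM in constitutive DNp63 cells, against 68.4 and 66.7 CPM in GFP cells, and at 17.2 and 23.6 CPM in induced cells, against 53.9 and 63.8 CPM in uninduced cells. It fell by 2.92 ± 0.31 on the log2 scale in the average (edgeR adjusted p = 0.000412). In 8 fits without 1 library the averaged change of SHISA2 ran from −3.69 to −2.48. After induction alone its change was −1.54 ± 0.39 (edgeR adjusted p = 0.233). That change was called by DESeq2 (adjusted p = 0.00561) and by edgeR with the replicate number as a block (adjusted p = 0.0483). It ran from −1.78 to −1.32 in 8 fits without 1 library.

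The ERK phosphatase DUSP4 was at 55.1 and 34.7 CPM in constitutive DNp63 cells, against 99.4 and 132 CPM in GFP cells, and its change of −1.38 passed (edgeR adjusted p = 0.00993) but not without GFP replicate 2 (edgeR adjusted p = 0.0666). LRIG1, which restrains receptor tyrosine kinases, was at 31.4 and 95.8 CPM in constitutive DNp63 cells, against 139 and 229 CPM in GFP cells, a change of −1.52 (edgeR adjusted p = 0.0456). IL17RD, a membrane protein that dampens FGF receptor signalling, was at 62.6 and 203 CPM in constitutive DNp63 cells, against 332 and 394 CPM in GFP cells, a change of −1.44 that just missed (edgeR adjusted p = 0.052). It was called by DESeq2 (adjusted p = 0.00165), limma-voom (adjusted p = 0.0294), with the replicate number as a block (adjusted p = 0.00256), with no filter (adjusted p = 7.29e-09) and without legacy estimates (adjusted p = 0.0443). Its averaged change was −0.72 (edgeR adjusted p = 0.18). DUSP6, the ERK phosphatase best known as an FGF target, was at 12.0009 and 41.7 CPM in constitutive DNp63 cells, against 33.3 and 79.2 CPM in GFP cells, and its change of −1.06 did not pass (edgeR adjusted p = 0.228). LRIG1, IL17RD and DUSP6, like FGFR1, were lower in DNp63 replicate 1 than in replicate 2, whereas DUSP4 and SHISA2 were higher in replicate 1. DUSP6 was named after its values were seen.

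Of 11 response genes of FGF and ERK signalling 10 were tested and none was called in the average by edgeR, DESeq2 or limma-voom, with a median of −0.09 and 1 at an unadjusted p below 0.05. Under constitutive DNp63 alone 2 fell, with a median of −0.51, and after induction none was called, with a median of 0.28. MYC, a growth regulator, was at 491 and 348 CPM in constitutive DNp63 cells, against 616 and 958 CPM in GFP cells, a change of −0.91 (edgeR adjusted p = 0.0435). ETV5, an ETS factor of the FGF response, was at 207 and 290.4 CPM in constitutive DNp63 cells, against 485 and 386 CPM in GFP cells, a change of −0.81 (edgeR adjusted p = 0.0405). PHLDA1, a growth factor response gene, had values on the other side, at 22.3 and 15.5 CPM in constitutive DNp63 cells, against 0.369 and 11.4 CPM in GFP cells, with 1 count in GFP replicate 1. Its change was 1.53 under constitutive DNp63 (edgeR adjusted p = 0.246; 0.00441 with no filter, and 0.0137 without GFP replicate 2, which leaves the library with 1 count) and 1.06 in the average (edgeR adjusted p = 0.307; 0.00642 with no filter). ETV1 was at −0.53 in the average (edgeR adjusted p = 0.402). The constitutive calls of LRIG1, MYC and ETV5 were each lost in most of 8 fits without 1 library. In those fits the change ran from −2.55 to −0.95 for LRIG1, from −1.20 to −0.57 for MYC and from −1.07 to −0.59 for ETV5. With unscaled library totals none of these 3 was called (adjusted p of 0.0587, 0.0637 and 0.0629 in the same order). Nor was any in an edgeR fit of the 4 constitutive libraries alone (adjusted p of 0.188, 0.235 and 0.247). The 5 factors that steer FGF receptor splicing, ESRP1 and ESRP2 among them, were all tested and none was called by edgeR, DESeq2 or limma-voom, with an averaged median of −0.23 and 1 at an unadjusted p below 0.05. ESRP2 was at −0.37 (edgeR adjusted p = 0.155) and ESRP1 at 0.30 (edgeR adjusted p = 0.546).

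**Figure D5:**
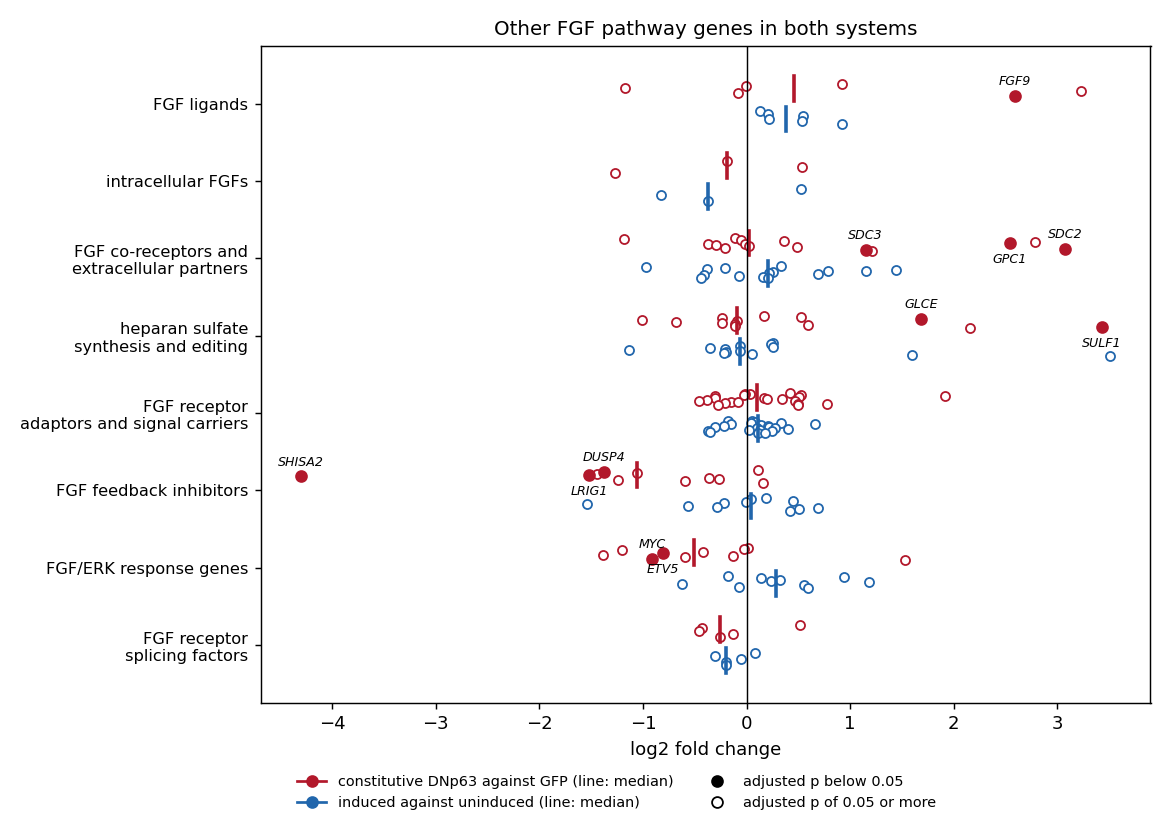
Log2 fold changes of the other tested FGF pathway genes by list, constitutive DNp63 against GFP above induced against uninduced in each list; points are genes, lines are list medians and filled points have an adjusted p below 0.05. All filled points are in the constitutive comparison, and the feedback inhibitors have the lowest constitutive median, −1.06, beside 0.05 after induction.

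The genes whose profile over the 8 libraries was most like that of each member were found by the root mean square (RMS) difference of centred log2 CPM, among tested genes that averaged 5 CPM or more. FGFBP1 was nearest to NRXN3, a neuronal adhesion protein (RMS 0.131), PHLPP1, a phosphatase of AKT (0.149), and ID3, an inhibitor of helix-loop-helix factors (0.164), against a spread of FGFBP1 itself of 0.738. ID3 averaged 144 ± 33.0 CPM in constitutive DNp63 cells and 618 ± 91.0 CPM in GFP cells, and 353 ± 30.5 CPM in induced cells and 463 ± 37.1 CPM in uninduced cells (SD, n = 2 each). Like FGFBP1, all 3 were called lower under constitutive DNp63 and not after induction, which their choice by likeness makes no independent result. FGFR1 was nearest to POU3F3, a neural POU-domain transcription factor (0.151), then HOXA11-AS (0.198) and ABHD17C (0.203), with an own spread of 0.640. POU3F3 shared the gap between the DNp63 libraries, with 3.43 and 11.1 CPM there, 16.3 to 19.1 CPM in GFP cells, 9.44 to 10.4 CPM in induced cells and 8.36 to 11.5 CPM in uninduced cells. FGFR4 was nearest to TMEM38A (0.109), FAXC (0.116) and NOTCH2NL (0.119), FGFR3 to C4orf48 (0.103), THAP3 (0.104) and ADAP1 (0.112), and FGF2 to AGA (0.203), DHX57 (0.223) and PRKRIP1 (0.248). NOTCH2NL has near-identical copies, so its counts are uncertain.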

How the data were processed

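The authors deposited unnormalized gene counts in a column for each library. TopHat2 2.1, SAMtools, HTSeq, DESeq2 and the hg19 build are named in the submitters' processing notes. Which annotation and strand setting were used is not given. Per the labels' protocols, libraries were polyA-selected, directional and read from both ends for 38 bp.

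From these counts, genes were kept by edgeR's filterByExpr (minimum count 10), TMM-scaled and fitted with edgeR 4.0.16 under R 4.3.3 (quasi-likelihood, legacy estimates), with a mean for each group and a spread shared by all 8 libraries. Tests were two-sided, Benjamini-Hochberg adjusted over 12303 genes and called below 0.05. Contrasts were constitutive DNp63 minus GFP, induced minus uninduced, their average, their difference, and uninduced minus GFP. Log ratios used a prior count of 2. Sparse genes were compared by summed counts with 95% exact limits. In a single library 3 counts were 0.292 to 1.11 CPM. The 6 members, the pathway and marker lists and the tests were chosen with earlier results of these data known. Beside the members, up to 4 tested genes of each list with the smallest p in the average, every list gene called there, and the 3 genes most like each member were named. DUSP4, LRIG1, MYC and ETV5 come under that rule, and FGF19, KLB, DUSP6 and SDC3 were added after their values were seen. Lengths are merged exons of GENCODE v29 (GRCh38), another build and annotation than that counted. Promoter windows of 5 of 6 members matched by symbol. Alternatives used DESeq2 1.42.0 and limma 3.58.1 (voom). The procedure was tested on simulated data. Libraries of a group differed by more than sampling noise and were kept as separate replicates.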

Additional observations from a re-analysis of the deposited data

Results flagged for a closer look

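The change in TP63 from its own control differed between the systems by a test of the difference itself. TP63 was 417 ± 6.89 CPM in induced cells and 12.7 and 14.8 CPM in the uninduced libraries, a log2 fold change of 4.91, and 2833 ± 1389.9 CPM in constitutive DNp63 cells, against 0.739 and 1.91 CPM in the GFP libraries, a log2 fold change of 10.90 (SD, n = 2). Induced minus constitutive, the difference was −5.99 ± 0.58 on the log2 scale (SE; edgeR adjusted p = 0.00378). It includes a gap between the controls, where uninduced minus GFP was 3.23 ± 0.50 (edgeR adjusted p = 0.165). The GFP libraries held only 11 TP63 counts in sum. The value is therefore no measure of the TP63 supplied by the vectors alone. TP63 is the overexpressed gene, and none of the 5 tested FGF members differed between the systems by the same test.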

How the results depend on the processing

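The 5 tested members kept their side of the threshold in 389 of 405 comparisons with an alternative and gained a call in 16. FGFBP1 kept its calls throughout, also in a fit of the 4 constitutive libraries alone (−1.93; adjusted p = 0.0326). An edgeR fit of the 4 inducible libraries alone called no member. Adjusted p in that fit was 0.156 for FGFBP1, 0.151 for FGFR4, 0.154 for FGF2 and 0.748 for FGFR3. Under constitutive DNp63, 1 member was called lower, but 3 with no filter on low counts (FGFBP1, FGFR1, FGFR4), 3 with the replicate block, 2 with DESeq2, 2 with limma-voom and 1 to 3 without 1 library. In the average the count was 1, but 2 with no filter and 1 to 2 without 1 library. In the difference between systems it was 0, but 2 with no filter and 0 to 1 without 1 library, and in uninduced against GFP it was 0, but 1 with no filter.

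Counts over all genes moved more. Under constitutive DNp63 there were 1004 calls, 1791 with no filter, 275 in the 4 constitutive libraries alone and 452 to 1438 without 1 library. After induction there were 35, and 242 with no filter, 110 with DESeq2, 87 with the replicate block, 771 in the 4 inducible libraries alone and 2 to 104 without 1 library. The average gave 697, 1372 with no filter and 225 to 1113 without 1 library. The difference gave 67, 558 with no filter, 265 with DESeq2, 270 with the replicate block and 0 to 446 without 1 library. Uninduced against GFP gave 1, 245 with no filter, 0 with a minimum count of 30, 57 with DESeq2, 65 with the replicate block and 0 to 43 without 1 library. The cause was not tested. Fits without legacy estimates, chosen after seeing the data, left every member's call as it was. Unscaled library totals moved the median of all genes under constitutive DNp63 to 0.10, against 0.01, and the share of higher calls to 62.8%, against 51.1%. They moved the share of higher calls in the difference to 45.2%, against 53.7%. The replicate numbers pair no samples by the labels beyond the vector numbers. Deviations of same-numbered libraries correlated at 0.243 (DNp63 and GFP) and −0.0809 (induced and uninduced) over 10106 genes. Small counts limit FGFR2 and FGF2.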
